A study of Bos taurus with 12 samples.

Results

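The comparison described here set heifers with a high (H) response to ovarian superstimulation against heifers with a low (L) response, after averaging each heifer's plasma extracellular vesicle (EV) miRNA profile over 2 oestrous cycles. It asks which miRNAs differed between responses in a way that lasted from the unstimulated (U) cycle into the superstimulated (S) cycle. The members were the miRNAs with a value above 0 in at least 6 of the 12 libraries, which left 190 of the 783 bovine miRNAs in the table. Charolais- and Limousin-cross heifers gave plasma on Day 7 of both cycles, and the S cycle followed FSH injections, prostaglandin and artificial insemination. H heifers came from the upper quartile and L heifers from the lower quartile of the number of corpora lutea after superstimulation, with 3 heifers in each group. The groups were thus UL, UH, SL and SH, with 3 libraries each, and all heifers had gone through the same synchronization with progesterone, GnRH and prostaglandin. A U library was paired with the S library that shares its response letter and number, so the heifer means (H1 to H3 and L1 to L3) rest on that shared number. Response was scored in the S cycle, after the U plasma had been drawn. Breed cross and age are not given for single heifers, and their part cannot be told apart from that of the response.

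miRNAs are short RNAs that guide Argonaute proteins to messenger RNAs, mostly through pairing of the seed near their 5′ end with sites in the 3′ untranslated region, which lowers translation and stability of the message. miRNAs with the same seed are predicted to share many targets. EVs are membrane particles that cells release, and those in plasma carry miRNAs from blood cells, endothelium, muscle, liver and many other sources. A plasma EV profile therefore mixes cell types, and fewer vesicles from a cell type cannot be told apart from less of a miRNA per vesicle.

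The miRNAs on which the comparison turns are shown first, 5′ to 3′ as in the deposited table, with T for U and the seed (bases 2 to 8) in capitals. miR-206 had the lowest P value, and miR-1 is shown because it has the same seed.
miR-206: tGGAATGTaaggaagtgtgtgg
miR-1: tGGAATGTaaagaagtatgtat
miR-133a: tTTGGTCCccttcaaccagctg
miR-6517: tCAGGGTCcgtgagctcctcggc
miR-877: gTAGAGGAgatggcgcaggg
miR-339a: tCCCTGTCctccaggagctcac
miR-339b: tCCCTGTCctccaggagctc
miR-206 and miR-1 were the 2 miRNAs in the table with that seed. Outside it they differ at 4 of 22 bases, G11A, G17A, G21A and G22T, counted from the 5′ end with the base of miR-206 first, so reads that match perfectly are not shared between them. miR-339b is miR-339a without its last bases, so how the reads split between those 2 is uncertain. The seeds of miR-6517 and miR-877 were found in no other miRNA of the table. In the RefSeq annotation of assembly ARS-UCD2.0, in which all 42 miRNAs looked up by name were found, MIR206 lies beside MIR133B inside a long non-coding RNA gene, MIR6517 lies inside DNAAF2, MIR877 inside ABCF1 and MIR339A inside C25H7orf50.

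The libraries held 21466 to 77433 reads of known miRNAs, with a median of 45496 in the 6 H libraries and 41190 in the 6 L libraries. A count of 3 reads, the limit that a count of 0 allows, equals 1.81 to 6.03 normalized reads depending on the library, where a normalized read is a read scaled to a common library size with TMM factors. The 190 miRNAs held at least 99.85% of the miRNA reads in every library, and 119 were read in all 12. Members with reads in exactly 6 libraries numbered 13, with 6 to 17 reads in all, and the 16 miRNAs just outside the rule, read in 5 libraries, had 6 to 22. Nothing in the labels marks a batch or a sequencing date. All 3 erythroid, 8 leukocyte and 4 endothelial miRNAs listed as blood and vessel markers were among the 190, and a miRNA table holds no protein marker with which to check that the particles were EVs.

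Few miRNAs were called between H and L heifers when both cycles were averaged. To be called, a miRNA needed a log2 fold change of 1 or more in either direction together with a limma P, before adjustment, no higher than 0.05, on the scale of log2(normalized reads + 1). Of the 190, 3 were called (1.58%), miR-6517 and miR-877 higher and miR-206 lower in H. None passed a Benjamini-Hochberg adjusted P of 0.05 in limma, where the smallest was 0.283. Before adjustment, P was 0.05 or lower for 4 miRNAs (2.11%). The log2 fold change was at least 1 in 6 miRNAs higher in H (3.16%) and 4 lower in H (2.11%), whatever their P. The median absolute log2 fold change over the 190 was 0.32 and the median standard error (SE) 0.48, so most differences were smaller than their own error. Fold changes above 0 were found in 93 (48.9%), and the median was -0.02. With 3 heifers against 3, an exact permutation test of any one miRNA cannot give a two-sided p below 0.1.

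The call count moved with single animals and libraries. Without H2, 14 of 196 miRNAs tested were called, against 3 of 190 (1.58%) with all heifers. Without H1, L1 and L2 the counts were 6 of 197, 5 of 193 and 6 of 185. Leaving out UL3, UH2 or SL1 alone gave calls for 5 of 183, 7 of 185 and 7 of 183. A heifer was then represented by its other library. The calls came from miRNAs of low and middle level. The 83 miRNAs below 10 normalized reads had 2 calls and a median SE of 0.56, the 64 miRNAs between 10 and 100 had 1 call and a median SE of 0.40, and the 43 above 100 had 0 calls and a median SE of 0.30.

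**Figure D1:**
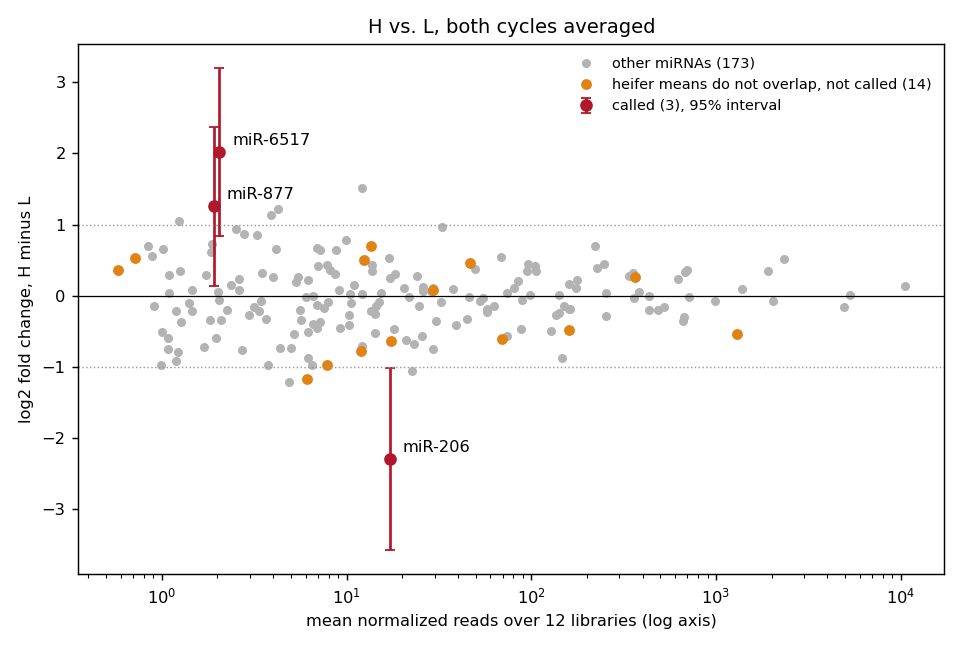
Averaged log2 fold change (H minus L) of each of the 190 miRNAs against its mean normalized reads over 12 libraries (log axis). Red points are the 3 called miRNAs with 95% intervals from limma, orange points the 14 others whose 3 H and 3 L heifer means do not overlap, and dotted lines mark a log2 fold change of 1 in each direction. miR-6517 and miR-877 lie near 2 mean normalized reads, and no miRNA above 100 mean normalized reads was called.

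miR-206, a miRNA of skeletal muscle and its precursor cells, was lower in H heifers in both cycles. Reads in UL were 94, 19 and 12 and in UH 3, 2 and 5. In SL they were 33, 13 and 8 and in SH 3, 4 and 5. After normalization the L libraries ranged from 11.9 to 86.6 and the H libraries from 1.42 to 8.04, so the highest H library stayed below the lowest L library. The normalized heifer means were 4.22, 4.73 and 3.39 in H and 63.6, 15.0 and 12.1 in L, with L1 far above L2 and L3. The averaged log2 fold change was -2.29 ± 0.58 (SE, n = 3 heifers per group; 95% interval -3.57 to -1.01, limma adjusted P = 0.283). In the cycles it was -2.79 ± 0.72 (U) and -1.80 ± 0.72 (S), and the difference between cycles was 0.99 ± 0.69 (limma adjusted P = 0.909). Without heifer L1 it was -1.63, still past both thresholds. All reads summed gave 22 in H and 179 in L, a depth-adjusted ratio of 0.11 (95% interval 0.0675 to 0.173, exact binomial, counting error only).

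miR-6517 was higher in H heifers in both cycles, from very few reads. UH libraries held 5, 2 and 6 reads and SH libraries 4, 1 and 5. Among the L libraries, UL2 held 1 read and the other 5 held 0. As counted, the H libraries lay at 1.42 to 7.34 normalized reads and the L libraries at 0 to 0.90. A count of 0 allows 2.77 to 4.64 normalized reads in the 5 L libraries without a read, which reaches into the H range, so a separation of single libraries was not detectable at this depth. SH2 and UL2 both held 1 read, and their order was set by library size. The averaged log2 fold change was 2.02 ± 0.54 (SE; 95% interval 0.85 to 3.20, limma adjusted P = 0.283), and it was 1.96 ± 0.75 in U and 2.09 ± 0.71 in S. The sums of 23 reads in H and 1 in L give a ratio of 20.7 with a 95% interval of 3.36 to 852 (exact binomial, counting error only). The miRNA met the filter of 6 libraries through its 6 H libraries, so a separation was partly fixed by the filter and is given as a description. Its fold change moved with the constant added before the log, from 1.40 with 2 reads to 2.74 with 0.5 reads, and was 3.16 in limma voom on summed reads. As counted, the 6 H libraries lay on one side of the 6 L libraries for 2 of 190 miRNAs (1.05%). These were miR-206, which was read in all 12 libraries, and miR-6517, with the limits just given. Both had been put forward by the study from these same samples, so their separation here is not independent of that choice. The study also measured both by RT-qPCR in a separate group of heifers, which these libraries do not cover.

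miR-877, whose host gene ABCF1 encodes a translation factor of the ABC family, was called on average but differed mainly in the S cycle. Reads were 0, 0 and 3 in UL, 1, 2 and 0 in UH, 0, 1 and 0 in SL and 3, 3 and 10 in SH. As counted, the 3 SH libraries thus held more reads than any SL library, while UL and UH overlapped. A count of 0 allows 3.68 normalized reads in SL1 and 4.64 in SL3. The lowest SH library lay at 4.03, so a separation of single libraries was not detectable at this depth. The averaged log2 fold change was 1.26 ± 0.51 (SE; 95% interval 0.14 to 2.38, limma adjusted P = 0.831), made up of 0.20 ± 0.80 in U and 2.32 ± 0.74 in S. The difference between cycles was 2.12 ± 0.93 (limma adjusted P = 0.726). The call was lost in 9 of 18 runs that left out a heifer or a library, with 0.77 without SH3, 0.94 without SL3 and 0.996 without L1, and also without H1, H2, L2, UL2, SH1 or SH2. It was lost in 4 of 11 alternatives as well. With the heifer as a block over the 12 libraries the unadjusted P was 0.0507 and the limma adjusted P 0.836, with the number as a fixed block the unadjusted P was 0.0728, without a filter it was 0.0627, and with 2 reads added before the log the fold change was 0.88.

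**Figure D2:**
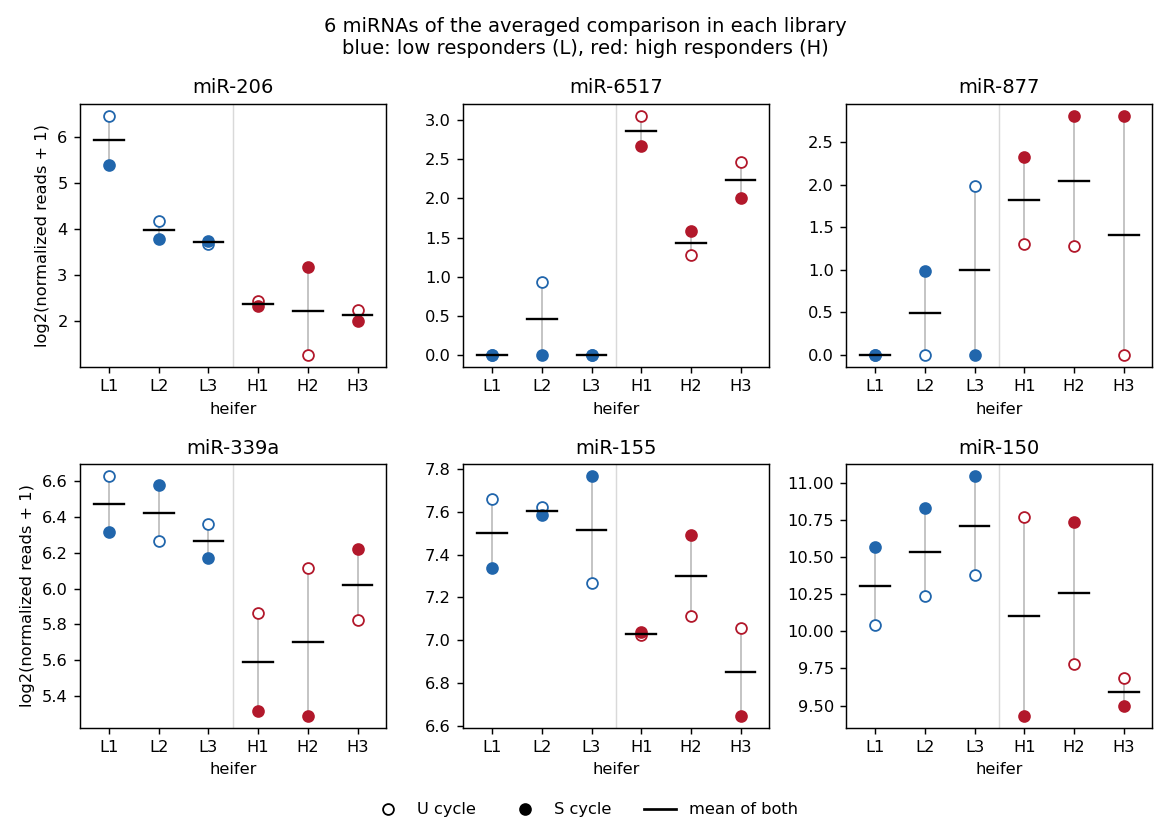
Log2(normalized reads + 1) of 6 miRNAs in the U (open) and S (filled) library of each heifer, with the mean of both as a black bar; blue heifers are L, red heifers H, and the panels have their own y axes. The H and L bars do not overlap in any panel, whereas the single libraries as counted separate for miR-206 and, from 0 to 6 reads a library, for miR-6517.

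miR-339a was lower in H by less than the threshold of the call, but with a smaller error than the miRNAs above. Heifer means were 48.1, 53.2 and 64.6 normalized reads in H and 88.2, 85.2 and 76.0 in L. The log2 fold change was -0.61 ± 0.26 (SE; 95% interval -1.19 to -0.03, limma adjusted P = 0.831), with -0.48 in U and -0.74 in S. By library, H ranged from 38.2 to 73.5 and L from 71.1 to 97.7, and SH3 was the H library that reached into the L range. With the reads of miR-339b added, an alternative chosen after seeing the data, the log2 fold change was again -0.61.

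Heifer means of the 3 H animals did not overlap those of the 3 L animals for 17 of 190 miRNAs (8.95%), 9 higher (4.74%) and 8 lower (4.21%) in H. An order without overlap is the one to which an exact permutation test of 3 against 3 gives its smallest two-sided p, 0.1. The share of 8.95% was not above that, so the names are given as a description. Besides those treated above, the lower ones were miR-155, miR-150, miR-17-5p, miR-190a, miR-532 and miR-1307. The higher ones were miR-152, miR-423-3p, miR-107, miR-151-3p, miR-6120-3p, miR-29d-3p and miR-660, and miR-660 turned from 0.09 to -0.04 when libraries were scaled to total miRNA reads. Without SL2 the count of non-overlapping miRNAs was 11 of 185 tested. Mature sequences of those with at least 10 mean normalized reads whose averaged log2 fold change was 0.4 or more in size are given here, in the same notation.
miR-155: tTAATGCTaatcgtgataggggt
miR-150: tCTCCCAAcccttgtaccagtgt
miR-17-5p: cAAAGTGCttacagtgcaggtagt
miR-1307: aCTCGGCGtggcgtcggtcgtg
miR-152: tCAGTGCAtgacagaacttggg
miR-423-3p: aAGCTCGGtctgaggcccctcagt
miR-107: aGCAGCATtgtacagggctatc
miR-103: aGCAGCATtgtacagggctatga
miR-107 shares its seed with miR-103, added for comparison, and their first 21 bases are identical.

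Of the 8 leukocyte miRNAs, miR-155 and miR-150 were among the non-overlapping ones, while the list as a whole had 3 above and 5 below 0 with a median of -0.09. miR-155, which is induced in activated lymphocytes and macrophages, had log2 heifer means of 7.03, 7.30 and 6.85 in H and 7.50, 7.60 and 7.52 in L. Its difference of -0.48 ± 0.24 was nearly the same in U (-0.45) and S (-0.50), and the interval of the average, -1.01 to 0.05, included 0. miR-150, abundant in mature lymphocytes, had log2 heifer means of 10.10, 10.26 and 9.59 in H and 10.31, 10.53 and 10.71 in L, a difference of -0.53 ± 0.28. In U it was -0.14 and in S -0.92, and UH1 (1744 normalized reads) was above all 3 UL libraries (1054 to 1328). Without logs the miR-150 mean of H2 (1293 normalized reads) was just above that of L1 (1286). For both, limma gave an adjusted P of 0.831.

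On the higher side, miR-152 had log2 heifer means of 4.36, 3.65 and 4.23 in H and 3.31, 3.46 and 3.37 in L, a difference of 0.70 ± 0.41. The SH1 library, at 32.2 normalized reads, was its highest, and SH2, at 8.04, lay among the SL libraries (6.18 to 8.60). miR-423-5p, from the same gene as miR-423-3p and more abundant, differed by 0.09 ± 0.31. miR-423-3p differed by 0.46 ± 0.29, and its closest heifer means were 5.64 in H1 and 5.63 in L1. Without logs H1 (49.0 normalized reads) was below L1 (49.1). miR-660 overlapped without logs too, with 30.1 to 30.9 normalized reads in H against 32.9 in L3. miR-107 differed by 0.50 ± 0.40, of which nearly all arose in the S cycle. miR-103, of the same seed and more abundant, differed by -0.18 ± 0.25. Since the first 21 bases of miR-107 and miR-103 are identical, the division of reads between them is uncertain. miR-151-3p differed by 0.26 ± 0.23, from 0.52 in U and -0.01 in S. miR-151-5p, from the same gene, differed in the other direction by -0.41 ± 0.32, from 0.35 in U and -1.17 in S. miR-6120-3p had 7 reads in H and 2 in L over all libraries and miR-29d-3p had 4 and 2, so their order rests on single reads.

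Next in P were miRNAs that missed a threshold by little. miR-326, encoded inside ARRB1, had heifer means of 1.47, 3.20 and 4.59 normalized reads in H and 7.99, 4.23 and 7.88 in L, so H3 overlapped L2. The difference was -1.21 ± 0.55 (95% interval -2.43 to 0.01, limma adjusted P = 0.831). It was called in 4 of 11 alternatives and 7 of 18 leave-outs. miR-205, a miRNA of stratified and glandular epithelium, differed by -0.75 ± 0.37, and its -1.17 in U was past both thresholds while S gave -0.33. The UL2 and UL3 libraries held 61.4 and 60.3 normalized reads, and the other 10 libraries 10.3 to 34.5. miR-505 differed by 1.05 ± 0.54 with 13 reads in H and 3 in L, all 3 of the latter in UL2. miR-190a (-1.16 ± 0.60) and miR-532 (-0.97 ± 0.51) were lower in H in both cycles, by -0.77 and -1.05 in U and by -1.55 and -0.88 in S. In miR-190a, H1 stood lowest with 0.73 normalized reads against 4.86 to 9.51 in the other 5 heifers.

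Other miRNAs with a log2 fold change of at least 1 were not called, with standard errors of 0.64 to 0.94. miR-199b differed by 1.52 ± 0.94, from heifer means of 42.0, 0.71 and 18.1 normalized reads in H and 6.75, 4.19 and 0.99 in L. miR-2419-5p differed by 1.22 ± 0.76, and H1 (0.73) lay below all 3 L heifers (0.90 to 3.07) while H2 and H3 (8.64 and 10.5) lay above them. miR-184 differed by -1.05 ± 0.72, with L2 at 69.9 and the other 5 heifers between 2.18 and 20.2. miR-199c, read from the same miRNA family as miR-199b, differed by 1.14 ± 0.64, from 0.11 in U and 2.16 in S. Since 19 of its 20 bases are a run also found in miR-199a-3p, the division of reads between those 2 is uncertain. miR-199b, miR-2419-5p and miR-184, like the non-overlapping and cycle-dependent miRNAs outside the rule for named miRNAs, were chosen after their values were seen.

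The skeletal and cardiac muscle list took most of its reads from a single library. It held miR-206, miR-1, miR-133a and miR-499, the tested members of 7, and all 4 were lower in H, by -2.29, -0.87, -0.57 and -0.71, with a median of -0.79 against -0.02 over all 190 miRNAs. miR-206 was the one called. miR-1, the main miRNA of adult skeletal and cardiac muscle, had 1246 reads in UL1 and 30 to 77 in the other 11 libraries. miR-133a, encoded beside miR-1, had 506 reads in UL1 and 21 to 61 elsewhere. Summed over all 7 members, L1 held 942 normalized reads, against 78.9 and 121 in L2 and L3 and 65.9 to 131 in H, so H and L overlapped once L1 was set aside.

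Without heifer L1, miR-133a turned to 0.32, miR-1 was -0.20, the list median was -0.16 and 3 of 4 members were lower. Without L2 that median was -1.38. miR-206 was the member that kept its call without L1. Heifer L1's S library did not stand apart for miR-1 (46.7 normalized reads against 25.9 to 100.5 in the other S libraries), but its 40.5 normalized reads of miR-206 were the highest of S. SL1 was also the highest S library for miR-133a (74.9 normalized reads against 21.7 to 61.8). The same held, from 3 reads, for miR-499 (3.68 against 0 to 2.01). In the S cycle miR-1 differed by -0.02 ± 0.50 and miR-133a by 0.14 ± 0.52, whereas miR-206 differed by -1.80. miR-133b, the neighbour of miR-206 in the genome, was read 5 times in UL1 and 2 times in UL3 and had 0 reads in the other 10 libraries, so it was not tested. Since the first 21 bases of miR-133b and miR-133a are identical, the division of reads between those 2 is uncertain. miR-208a had 0 reads everywhere, and miR-208b had 4 in UL1 and 1 in UH2. The part of other muscle miRNAs in the miR-206 difference was not tested.

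**Figure D3:**
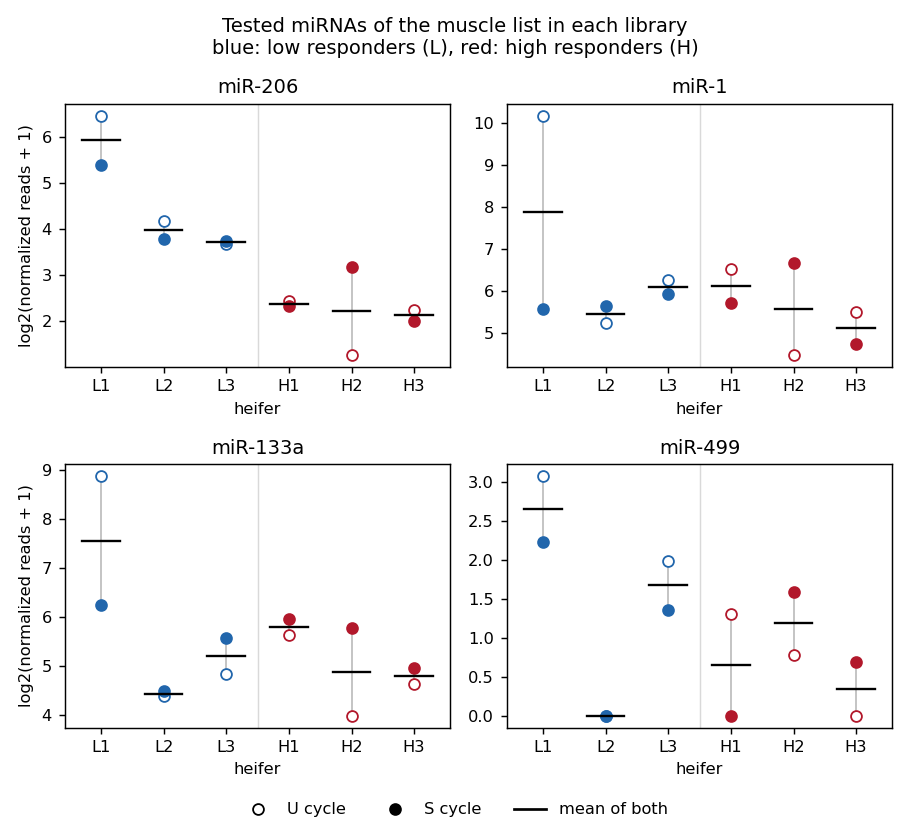
Log2(normalized reads + 1) of the 4 tested miRNAs of the muscle list in the U (open) and S (filled) library of each heifer, with the mean of both as a black bar; blue heifers are L and red heifers H. L1 has by far the highest U value for miR-1 and miR-133a, and the H and L means separate for miR-206 alone.

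Lists of miRNAs known from other cell types had no member called on average, and their medians moved with single heifers. Scaling to total miRNA reads moved the median of all miRNAs from -0.017 to -0.134 and the deposited values moved it to 0.143, so members are counted here as above or below that median, and the counts were the same under each scaling apart from the erythroid list. The mesenchymal list (miR-143, miR-145, miR-214 and the miR-199 family, from fibroblasts and smooth muscle) had 6 of 7 members above it and a list median of 0.37, which was 1.29 without H2, 0.92 without L1, 0.17 without L3, 0.03 without L2 and -0.13 without H3. Its summed level was 698, 99.9 and 526 normalized reads in H1, H2 and H3 and 372, 104 and 138 in L, so H2 lay below all 3 L heifers. miR-199a-3p, its most abundant member, differed by 0.70 ± 0.60, with a range over the leave-outs from 0.058 without SH1 to 1.48 without H2, where it was called. The endothelial list had 4 of 4 below it and a list median of -0.24, which was -0.72 without H2, -0.48 without L1 and -0.09 without H1. miR-126-3p, encoded in EGFL7, was the most abundant of them with -0.16 ± 0.46, and H2, at 8707 normalized reads, was the highest heifer while H3, at 2753, was the lowest.

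The leukocyte list had 3 of 8 above the median of all, and its list median of -0.09 was 0.06 with deposited values and lay between -0.29 (without H2) and 0.04 (without H3). miR-155, miR-150 and miR-146b lay at its lower end, and miR-223 (myeloid cells), at 0.34 ± 0.28, and miR-142-5p, at 0.40, at its upper end. The erythroid list (miR-451, miR-144 and miR-486) had 2 of 3 above it, or 3 of 3 with total-read scaling, where the list median of 0.07 became -0.05. Without H3 that median was -0.18, and without the other heifers it was 0.04 to 0.38. Its summed level in H3, 5559 normalized reads, was far above that of the other heifers (1086 to 2442). Most of that was miR-486, encoded in ANK1, with 8318 normalized reads in SH3 against 975 to 2713 elsewhere. The part of red cell miRNAs in the other differences was not tested.

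The epithelial list had 4 tested members of 9, 3 below the median of all, with a list median of -0.56 (-0.74 to -0.19 without single heifers, the latter without H3) and miR-200c at 0.19. Its untested members had 0 reads in every S library, and miR-141 was read 1 time in UL1 and 8 times in UL2. The liver and gut list had 4 of 5 above it with a list median of 0.35 (-0.07 without H3, 0.65 without H1), led by miR-194 (0.64 ± 0.54) and miR-192 (0.55 ± 0.37). miR-122, the main hepatocyte miRNA, differed by 0.22 ± 0.39, and H heifers had 77.1, 345 and 224 normalized reads against 84.6, 172 and 159 in L. miR-375, of endocrine and gut cells, differed in the other direction by -0.68 ± 0.42.

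A list of miRNAs studied in follicle and corpus luteum had 4 of 12 members deep enough to test. miR-21-5p, abundant in luteal and granulosa cells, differed by 0.06 ± 0.30 between 488, 247 and 472 normalized reads in H and 456, 341 and 298 in L. miR-378 differed by -0.40 and miR-224 by -0.12. miR-31 was read 1 time in H (SH2) and 9 times in L, in 5 of 6 libraries. Its ratio of 0.0999 had a 95% interval of 0.00228 to 0.721 (exact binomial, counting error only), and its log2 fold change of -0.97 ± 0.55 was not called. miR-132 had 0 reads in the 6 H libraries and 5 reads in 4 L libraries, and miR-455-3p had 1 read in H and 10 in L, 6 of them in UL1. miR-455-5p went the other way, with 3 reads in H, all in SH3, and 0 in L. miR-424-5p had 1 read, in UL2. miR-212, miR-383, miR-202 and miR-503-5p had 0 reads in all 12.

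Of the families, the let-7 list (repressors of cell growth that share a seed) had 8 of 9 members above the median of all under each scaling, with a list median of 0.12 that was 0.00 with total-read scaling. Over the heifers left out it was 0.01 (without H1) to 0.25 (without H3), and 5 to 9 members were above the median of all. let-7b, the most abundant miRNA, differed by 0.13 ± 0.35 and let-7a-5p by 0.01 ± 0.32. let-7g had the largest difference in the list, 0.43 ± 0.27, from 139, 137 and 87.7 normalized reads in H and 89.7, 89.3 and 86.7 in L. The miR-17-92 list, a growth-promoting cluster and its paralogs, had 2 of 7 above it and a list median of -0.27 (-0.71 without L3, -0.12 without H1), with miR-17-5p at -0.78, miR-20a at -0.73 and miR-25 at 0.32. The 2 tested members of the miR-181 family were -0.36 and -0.45. HOX cluster miRNAs split into miR-196a (0.96 ± 0.64) and miR-196b (0.53) above it and miR-10a (-0.06) and miR-10b (-0.28) below. The imprinted DLK1-DIO3 locus had 8 of 51 members tested, 4 above and 4 below, from miR-411a at -0.87 to miR-494 at 0.85.

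**Figure D4:**
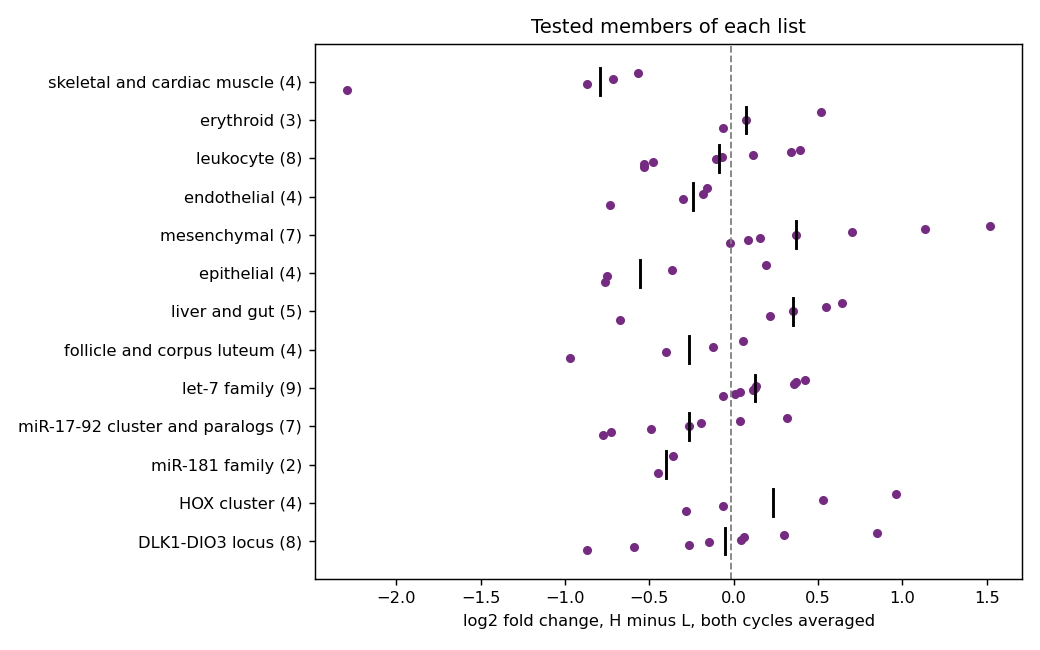
Averaged log2 fold change (H minus L) of the tested members of each list, 1 point per miRNA, with the number tested in brackets. Black bars are list medians and the dashed line is the median of all 190 miRNAs; miR-206, at -2.29, is the lowest point of the muscle list.

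H minus L differences of U and S went together only weakly over the 190 miRNAs. Most averaged differences were smaller than their own error. The 3 averaged calls had the same sign in both cycles, which selection by a large average favours. The H minus L log2 fold change had the same sign in U and S for 102 of 190 miRNAs (53.7%). It was at least 1 in size with the same sign in both for 4 (2.11%), miR-206, miR-6517, miR-199b and miR-2419-5p. Across the 190 miRNAs the fold changes of U and S had a Pearson correlation of 0.17, which describes miRNAs that share libraries and heifers. Within the U cycle 3 miRNAs were called (1.58%), miR-206, miR-6517 and miR-205, and within the S cycle 9 (4.74%), 4 higher (2.11%) and 5 lower (2.63%), with smallest limma adjusted P values of 0.324 and 0.666. miR-206 and miR-6517 were called in both. The other S calls were miR-877, miR-199c, miR-497, miR-17-5p, miR-139, miR-151-5p and miR-181a.

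A test of the change itself, the S minus U difference of each heifer compared between H and L, called 11 miRNAs (5.79%), with a smallest limma adjusted P of 0.356. None of the 3 averaged calls was among them. miR-17-5p is an example that reached the list of non-overlapping heifer means through the S cycle. Its SH libraries held 2.69, 2.01 and 7.83 normalized reads and its SL libraries 19.7, 11.8 and 17.0, while UH (13.5 to 17.6) and UL (9.03 to 15.7) overlapped. Its closest log2 heifer means, of H3 and L2, were both 3.50, and without logs H3 (10.7 normalized reads) was above L2 (10.4). The response difference was 0.31 ± 0.49 in U and -1.87 ± 0.71 in S, and the change between them -2.18 ± 0.66 (limma adjusted P = 0.356). miR-139 went from 0.37 in U to -1.50 in S, with 9.04 to 14.1 normalized reads in SH and 28.2 to 35.5 in SL, and averaged -0.57 ± 0.40. miR-497 went from -0.53 to 2.42 and averaged 0.94 ± 0.61, with 0 reads in all 3 SL libraries and 2, 2 and 12 in SH. Those counts of 0 allow 2.96 to 4.64 normalized reads, which reaches into the SH range of 2.69 to 7.23. miR-181a went from 0.39 to -1.10 (change -1.49 ± 0.64, limma adjusted P = 0.726), and miR-181b of the same seed from 0.50 to -1.40. For all 5 of these the averaged value lay between values of opposite sign in the cycles.

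**Figure D5:**
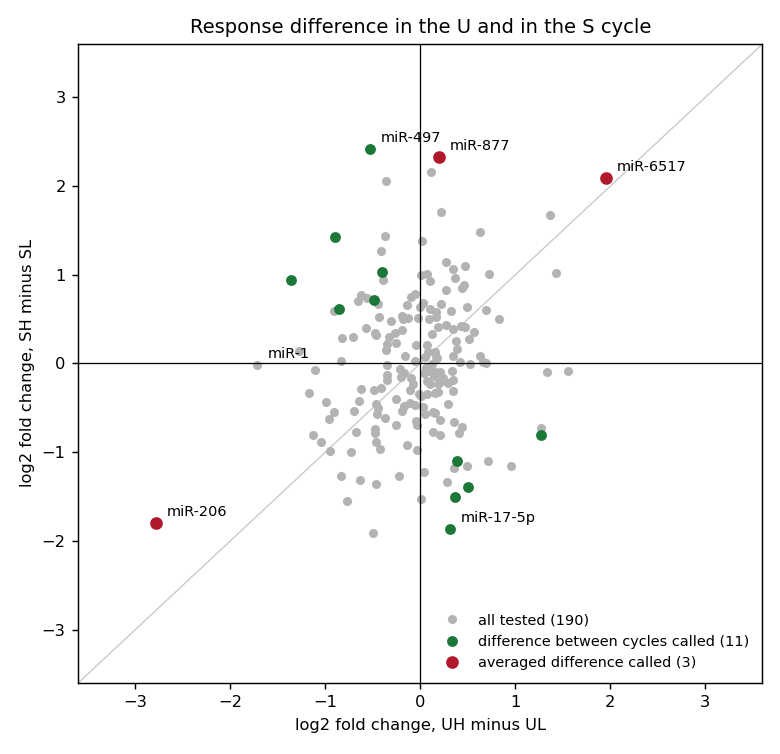
H minus L log2 fold change in the S cycle against that in the U cycle for the 190 miRNAs, with the line of equal values. Red points are the 3 averaged calls and green points the 11 miRNAs whose difference between cycles was called; miR-206 and miR-6517 lie near the line, and miR-877 near 0 on the U axis.

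The libraries of a heifer were only weakly alike beyond their group. Deviations from the group means correlated between the U and S library of a heifer at 0.12, 0.22 and 0.19 in H1, H2 and H3 and at 0.07, 0.06 and -0.05 in L1, L2 and L3, across 190 miRNAs. The consensus correlation of a heifer's libraries in limma was 0.14. Both values describe pairs formed by the shared number.

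Among the 146 miRNAs with a read that fell below the filter, 43 had reads in H libraries alone and 38 in L libraries alone. None had reads in at least 4 H libraries and 0 in L, and 2 had reads in at least 4 L libraries and 0 in H. These were miR-132, with 5 reads, and miR-2300b-3p, with 13 reads, 1, 5 and 1 in UL1, UL2 and UL3 and 2 and 4 in SL2 and SL3. Neither was tested, and both were named after their values were seen.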

How the data were processed

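Small RNA libraries of plasma EVs, with unique molecular identifiers, were trimmed, mapped to UMD3.1 with Bowtie2 2.2.2 and matched perfectly to miRBase by the authors. The deposited values are a score, which the authors made by scaling tags to 1000000 mapped reads and dropping decimals, for 783 miRNAs in 12 libraries. The number of columns not used was 0. Each library's values were whole multiples of the worth of 1 read (4.478 to 7.934) in 100% of cases, after decimals were dropped, so reads were recovered from them. A count model was not used for the calls, since the deposited unit is not counts. The recovered reads also served for the exact binomial intervals and, as an alternative, for limma voom.

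Reads were scaled with TMM factors (own code; 0.837 to 1.162) to the mean library size. Log2(normalized reads + 1) of the U and S library sharing response letter and number were averaged, and 3 H means were compared with 3 L means in limma 3.58.1 (R 4.3.3, lmFit and eBayes with a trend, two-sided) over 190 miRNAs with a read in at least 6 libraries. Each cycle, and the S minus U difference, were fitted likewise. statmod 1.5.0 gave the consensus correlation, and intervals and plots were made in Python 3.11.15 (scipy 1.17.1, matplotlib 3.10.9; tables with pandas 2.3.3 and numpy 2.4.6). The limma script was tested on simulated reads. Exact binomial intervals and the limits of a count of 0 cover counting error only, whereas limma intervals and P values rest on the spread between 3 heifers per group.

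Named miRNAs were those called, the next in P up to 12, those whose 12 libraries did not overlap, the 5 most abundant, miR-206, miR-1, miR-133a, miR-133b and miR-6517, and from each list the member with the smallest P and the highest mean. The members, lists and rules were chosen with earlier results of these data known. Alternatives covered scaling, added constant, filter, model and leaving out each heifer and library.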

Additional observations from a re-analysis of the deposited data

Results flagged for a closer look

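In 66 groups of 6 libraries of a response, formed by 33 named miRNAs, 4 had a library whose gap to its nearest neighbour took up more of the group's range than the critical value of 0.625, and chance gives about 1 in 20. In 3 of them the library was the only one of its group with a read, so the gap was the whole range (1.0). These were UL2 for miR-6517, with 1 read, UL2 for miR-505, with 3 reads, and SH2 for miR-31, with 1 read. The other was UL1 for miR-1, with 1148 normalized reads against 37.0 to 76.1 in the other 5 L libraries and, on the scale of log2(normalized reads + 1) used for all these gaps, a gap of 0.793 of the range. Without UL1 the averaged log2 fold change of miR-1 was -0.16, against -0.87 with it, and that of miR-206 was -2.16, still called.

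Of the named miRNAs, 2 had a response difference that changed between cycles past both thresholds in limma. For miR-17-5p the S difference minus the U difference was -2.18 ± 0.66 (SE, adjusted P = 0.356), and for miR-181a it was -1.49 ± 0.64 (adjusted P = 0.726). Neither passed the adjusted threshold.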

How the results depend on the processing

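miR-206 was called under all 13 alternatives and 18 leave-outs (-2.77 to -1.63) and miR-6517 under all 11 that tested it and 18 leave-outs (1.40 to 3.16). miR-6517 had met the filter through its 6 H libraries, so its calls were partly fixed by the filter and are given as a description. Requiring a read in all 12 libraries, or a mean of at least 10 reads, left it untested. The averaged comparison called 1 of 119 miRNAs with a read required in all 12 libraries and 1 of 107 with a mean of at least 10 reads. It called 5 of 190 without the trend, and 2 to 14, of 180 to 197 tested, when a heifer or library was left out. Calls higher in H made up 66.7% as reported, 50.0% with median-of-ratios or total-read scaling and 75.0% with deposited values. Non-overlapping heifer means numbered 11 of 107 with a mean of at least 10 reads, against 17 of 190 (8.95%) as reported. They numbered 11 to 64, of 180 to 197 tested, over the leave-outs, where fewer heifers separate more easily by construction. The change between cycles called 19 of 336 miRNAs without a filter and 5 of 107 with a mean of at least 10 reads. As reported it called 11 of 190 (5.79%).

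With the heifer as a replicate block over 12 libraries, 2 of 190 miRNAs were called and the smallest limma adjusted P was 0.0674. The numbers do not pair H with L heifers, whose same-numbered deviations correlated at 0.10, 0.11 and -0.06. With the number as a fixed replicate block 4 of 190 were called, and miR-206 had a limma adjusted P of 0.0132 there and up to 0.86 elsewhere.

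Signs turned in 10 of 33 named miRNAs, none of them called, and 10 uncalled ones gained a call in some setting. With total-read scaling let-7a-5p was -0.12, miR-21-5p -0.073 and miR-432 -0.062, and with deposited values miR-126-3p was 0.006 and let-7f 0.097. Over the leave-outs the ranges were -0.11 to 0.16 (let-7a-5p), -0.68 to 0.20 (miR-126-3p), -0.038 to 0.83 (miR-486), -0.26 to 0.061 (let-7f), -1.19 to 0.32 (miR-133a), -0.78 to 0.018 (miR-181a), -0.43 to 0.84 (miR-122), -0.18 to 0.35 (miR-21-5p), -0.14 to 0.61 (miR-25) and -0.18 to 0.19 (miR-432). For these the cause was not tested. A count of 0 allowed 38.7 to 139.8 reads per 1000000, so miRNAs below that were not comparable.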
